A study of Mus musculus with 3 samples.

Results

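The Rab GTPases are the largest family of small GTP-binding proteins of vesicle traffic, and their messenger RNAs were measured here among RNA pulled down with tagged ribosomes from mouse cortex. The members are the rows of the count tables whose symbol is Rab followed by a number and, where present, a letter and a digit; effectors and regulators were left out. This rule found 58 of 32531 rows that name a gene, and it uses no measured value. The 3 libraries form 1 group: cerebral cortex of adult, untreated C57BL/6J mice of line NIDA115 (Kcnip2-TRAP), whose transgene, named for Kcnip2, makes ribosomal protein L10a fused to EGFP. Translating ribosome affinity purification (TRAP) captures the tagged ribosomes with an antibody to EGFP, and the RNA bound to them was sequenced. The same transgene is in every library. Input RNA and pull-downs from mice without it were not analysed here, so the values are levels within the immunoprecipitate and not enrichment over whole cortex. Whether each library is a different animal is not said in the labels, so the p-values cover the spread among these libraries, and that spread may be technical. In such a bulk pull-down, fewer cells of a type and less RNA per cell cannot be told apart.

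Rab proteins cycle between an inactive form bound to GDP and an active form bound to GTP. Guanine nucleotide exchange factors (GEFs) switch them on, GTPase-activating proteins (GAPs) switch them off, GDP dissociation inhibitors (GDIs) extract them from membranes, and effectors such as tethers and motor adaptors bind the active form. Each Rab marks its own set of membranes, from the endoplasmic reticulum and Golgi to endosomes, lysosomes and, in neurons, synaptic and dense-core vesicles.

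Gene counts were 11602248, 13635132 and 14174384 in replicates 1, 2 and 3, and 3 counts, the limit that a count of 0 allows, were worth 0.213 to 0.256 counts per 1000000 (CPM); this limit covers counting error only. All 10 pan-neuronal genes of a marker list were detected at 1 CPM or more in every library, with sums of 40236 to 46539.6 CPM. Astrocyte genes summed to 1655 to 2632 CPM, oligodendrocyte genes to 489 to 669, microglial genes to 43.8 to 73.99 and endothelial and mural genes to 18.6 to 27.3. Slc1a2 made up 60.5% of the astrocyte sum, and the lowest gene of that list, Aldh1l1, averaged 7.45 CPM. Choroid plexus and ependymal genes summed to 5.54, 47.4 and 7.44 CPM in replicates 1, 2 and 3; Ttr was read in replicate 2 alone, at 42.02 CPM, and Folr1 had 0 counts. Of 10 marker lists, 8 had their lowest sum in replicate 1 and 7 their highest in replicate 2. Levels are CPM with TMM-scaled library sizes, given as mean ± SD over n = 3 libraries, and levels of different genes are set against each other after division by the length of their merged exons (CPM per kilobase). Where an order by undivided CPM is also given, it is named as such and depends on exon length too.

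Many Rabs exist as close copies, which matters for reads counted per gene. The coding sequences of 24 pairs within 17 subfamilies were 68.7% to 79.3% identical, and the longest run of identical bases in any pair was 38. The coding starts of the leading member of the 3 most abundant subfamilies and of its closest detected copy are shown for that reason; they encode the amino terminus and the first GTP-binding loop. Each line gives coding bases 1 to 150, 5′ to 3′, from GENCODE M21 transcripts (GRCm38, the assembly that mm10 names), and capitals mark bases that differ from, or have no partner in, the copy listed with it. Of these 150 bases, 24 differed between Rab6b and Rab6a, 29 between Rab2a and Rab2b and 37 between Rab3a and Rab3b.
Rab6b: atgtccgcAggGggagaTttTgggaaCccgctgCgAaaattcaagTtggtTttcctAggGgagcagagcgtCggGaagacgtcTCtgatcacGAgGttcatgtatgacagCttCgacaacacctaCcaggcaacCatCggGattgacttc
Rab6a: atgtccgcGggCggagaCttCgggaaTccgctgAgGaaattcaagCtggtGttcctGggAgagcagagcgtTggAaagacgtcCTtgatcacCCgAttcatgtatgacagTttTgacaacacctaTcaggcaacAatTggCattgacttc
Rab2a: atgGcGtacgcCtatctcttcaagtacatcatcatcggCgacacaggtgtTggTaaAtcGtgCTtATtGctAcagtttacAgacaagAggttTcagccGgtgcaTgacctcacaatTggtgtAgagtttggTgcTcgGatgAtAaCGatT
Rab2b: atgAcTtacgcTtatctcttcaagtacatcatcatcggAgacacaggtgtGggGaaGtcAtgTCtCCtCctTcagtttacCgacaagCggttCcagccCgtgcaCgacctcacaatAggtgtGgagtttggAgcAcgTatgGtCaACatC
Rab3a: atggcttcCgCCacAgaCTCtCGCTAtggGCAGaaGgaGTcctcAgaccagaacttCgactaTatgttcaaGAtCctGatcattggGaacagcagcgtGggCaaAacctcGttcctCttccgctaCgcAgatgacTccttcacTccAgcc
Rab3b: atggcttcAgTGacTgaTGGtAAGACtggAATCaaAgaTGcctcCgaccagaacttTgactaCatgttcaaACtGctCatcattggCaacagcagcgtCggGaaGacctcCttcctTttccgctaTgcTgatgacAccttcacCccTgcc

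No member of a subfamily shared a stretch of 50 transcript bases with another member of that subfamily. The 50-base stretches that 6 members did share with a Rab of another subfamily made up less than 1% of the transcript of each. Sharing with other annotated transcripts was larger: 10 members shared more than 10% of their 50-base stretches with some other gene, and 34 shared less than 1%. For Rab7 the main partner was a processed pseudogene, Rab7-ps1, with 11.1% of its stretches, and for Rab11b it was Rab11b-ps2 with 8.87%. For Rab6a (17.7%) and Rab24 (49.6%) it was an overlapping gene on the opposite strand, Mrpl48 and Prelid1. Overlapping models shared 74.5% of the stretches of Rab43, 56.0% of those of Rab4b and 54.5% of those of Rab2b. These models have no row in the count tables, whereas Mrpl48 and Prelid1 do. Read length and strand setting are not stated in the labels, and the levels of these genes are uncertain to that extent.

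Most Rab genes were present in the immunoprecipitates. Of the 58 members, 48 were detected, meaning at least 1 CPM in each library, against 37.3% of all rows that name a gene and 56.4% of the 20419 rows matched to a protein-coding gene. Levels of 100 CPM or more in all 3 libraries were reached by 11 members, against 5.75% of all rows and 9.05% of protein-coding ones. Among detected genes that is 11 of 48 members beside 15.4% of all. Rab17, Rab19, Rab20, Rab25 and Rab44 had 0 counts in all 3 libraries, as did 42.5% of all rows. The members summed to 9763, 9585 and 9959.7 CPM in replicates 1, 2 and 3. Per kilobase, Rab7, Rab6b and Rab2a together held 52.2% ± 0.920 of the summed level. The median member lay at log2 CPM 4.58 ± 0.095, compared with 2.01 ± 0.0340 for the median protein-coding gene. Among genes past a filter on low counts the medians were closer, at 5.14 ± 0.0982 for 50 members, 4.44 ± 0.0222 for 11822 protein-coding genes and 4.33 ± 0.0212 for all 12509 genes.

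**Figure D1:**
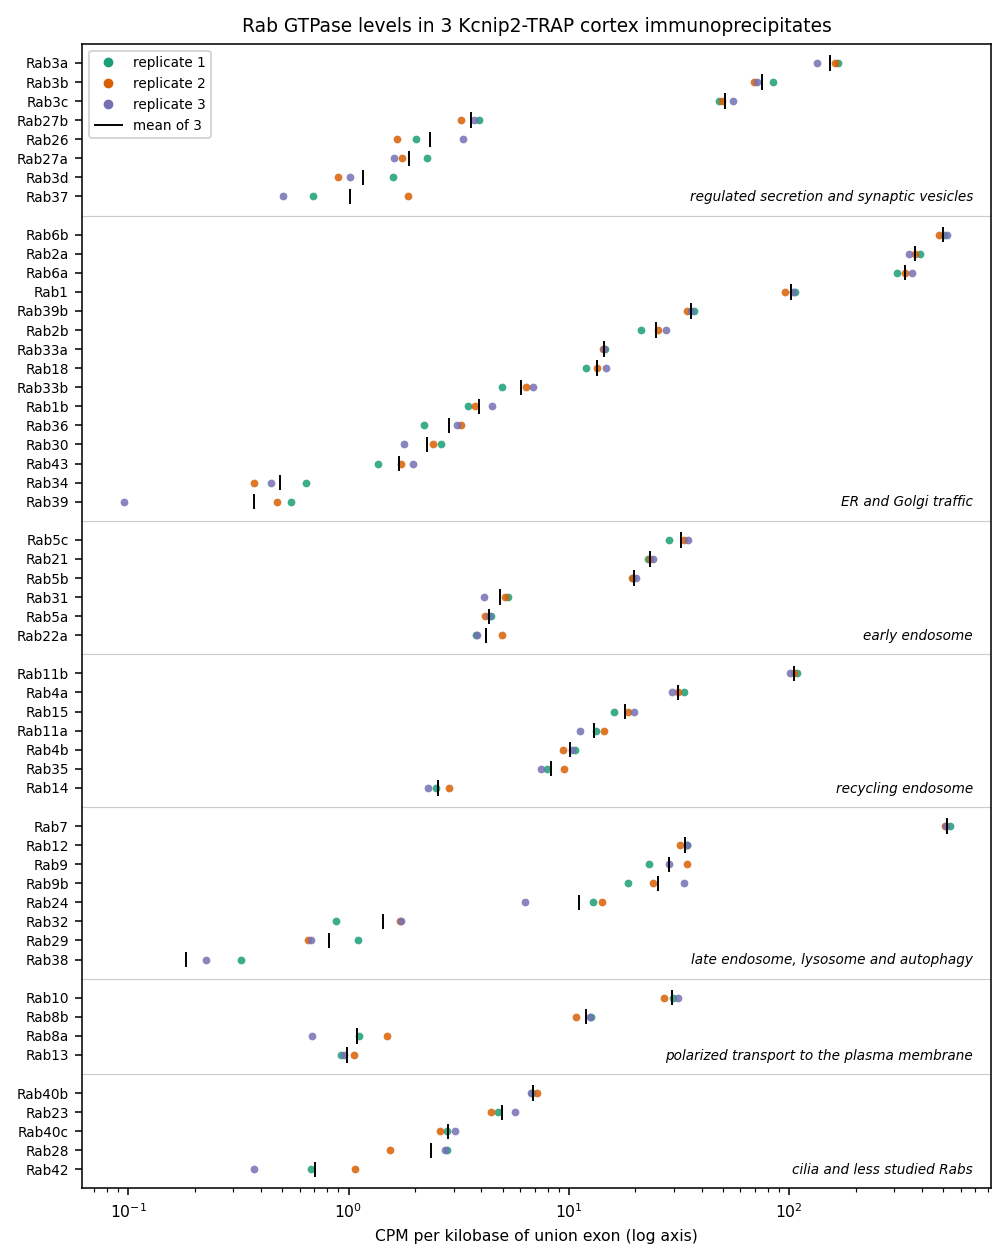
Level of the 53 Rab genes with a read, grouped by role; the horizontal log axis is CPM per kilobase of merged exon, points are the 3 libraries and black bars their mean (a library at 0, Rab38 in replicate 2, has no point). Rab7, Rab6b, Rab2a and Rab6a stand at 336 to 520 CPM per kilobase.

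Rabs of the endoplasmic reticulum and Golgi held 53.1% ± 0.913 of the summed CPM per kilobase of the family, and 13 of their 16 members were detected. Rab6b, the neuronal form of the Golgi Rab that directs retrograde and Golgi-to-surface carriers (chromosome 9, 103111787 to 103185276, plus strand), was at 2529.6, 2394 and 2623 CPM in replicates 1, 2 and 3. Rab6a, its widely expressed copy (chromosome 7, 100607410 to 100641268, plus strand), was at 1151, 1251 and 1351 CPM. Per kilobase the libraries of the pair did not overlap: Rab6b was at 503, 476 and 521 and Rab6a at 309, 336 and 362, so Rab6b supplied 59.9% ± 1.83 of the Rab6 level. The gene counts pool the splice forms of Rab6a, and 19.0% of its merged exons overlap Mrpl48, which was itself at 16.6 ± 0.120 CPM.

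Rab2a, which acts in traffic between Golgi and endoplasmic reticulum and in late endosome fusion (chromosome 4, 8535644 to 8607778, plus strand), was at 840.4, 795 and 747 CPM. Its copy Rab2b was at 88.4, 106 and 115 CPM. Rab2a supplied 93.7% ± 1.10 of the Rab2 level per kilobase and was the higher of the pair in every library. Rab1, now named Rab1a, which sends carriers from the endoplasmic reticulum to the Golgi (chromosome 11, 20201432 to 20226856, plus strand), was at 402, 363 and 397 CPM against 7.93, 8.49 and 10.2 CPM for Rab1b. Rab1 thus held 96.3% ± 0.470 of the level of its pair, with no overlap between the libraries.

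Rab39b, an X-linked Rab whose loss in humans causes intellectual disability with early parkinsonism (chromosome X, 75572046 to 75578231, minus strand), was at 125, 117 and 122 CPM. Its copy Rab39 was at 1.62, 1.40 and 0.283 CPM, from 19, 19 and 4 counts, and held 1.03% ± 0.660 of the level of the pair. Rab33a, of vesicles sent into growing axons, was at 16.9, 16.5 and 16.8 CPM (16.7 ± 0.216). Rab33b, a Golgi Rab that recruits autophagy factors, was at 21.5 ± 3.45 CPM. Per kilobase their order was the other way, with 70.5% ± 3.54 for Rab33a in a gene of shorter exons. Rab18, of the endoplasmic reticulum and lipid droplets, was at 91.7 ± 9.79 CPM, and Rab30, Rab36 and Rab43 lay between 9.31 and 21.9 CPM. Rab34 averaged 1.16 CPM and fell under 1 CPM in replicate 2, whereas Rab19 had 0 counts in every library.

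Among Rabs of regulated secretion all 8 members were detected, and together they held 10.9% ± 0.699 of the family's level per kilobase. Rab3a, the main Rab of synaptic vesicles and a partner of RIM and rabphilin (chromosome 8, 70754679 to 70758677, plus strand), was at 369.9, 359 and 298 CPM. Rab3b, found on vesicles of subsets of neurons and endocrine cells (chromosome 4, 108879063 to 108943324, plus strand), was at 299, 245 and 252 CPM. Rab3c, another synaptic vesicle form (chromosome 13, 110054187 to 110280996, minus strand), was at 577, 596 and 671 CPM. Rab3a and Rab3b were highest in replicate 1 and Rab3c in replicate 3.

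The order within the Rab3 genes depended on length. By CPM, Rab3c held 50.1% ± 4.38 of the Rab3 counts and led in 3 of 3 libraries. Per kilobase of merged exon, of which Rab3c has 12049 bases and Rab3a 2226, Rab3a led in 3 of 3 libraries with 54.6% ± 3.23, followed by Rab3b with 26.7% ± 1.83 and Rab3c with 18.3% ± 2.72. Rab3d, best known from exocrine granules, was at 6.65, 3.77 and 4.25 CPM and held 0.411% ± 0.106 of the level per kilobase.

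The other secretory Rabs were low. Rab27b, of dense-core and secretory vesicles, was at 38.5 ± 3.61 CPM and Rab27a, the form of melanosomes and cytotoxic granules, at 7.27 ± 1.34. Rab27b held 65.9% ± 3.35 of the level of the pair per kilobase. Rab26, of secretory granules and synaptic vesicle clusters, was at 5.80, 4.73 and 9.42 CPM. Rab37, of secretory granules, was at 3.67, 9.90 and 2.69 CPM, so Rab26 was above it in replicates 1 and 3 and below it in replicate 2, per kilobase as well as by CPM.

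**Figure D2:**
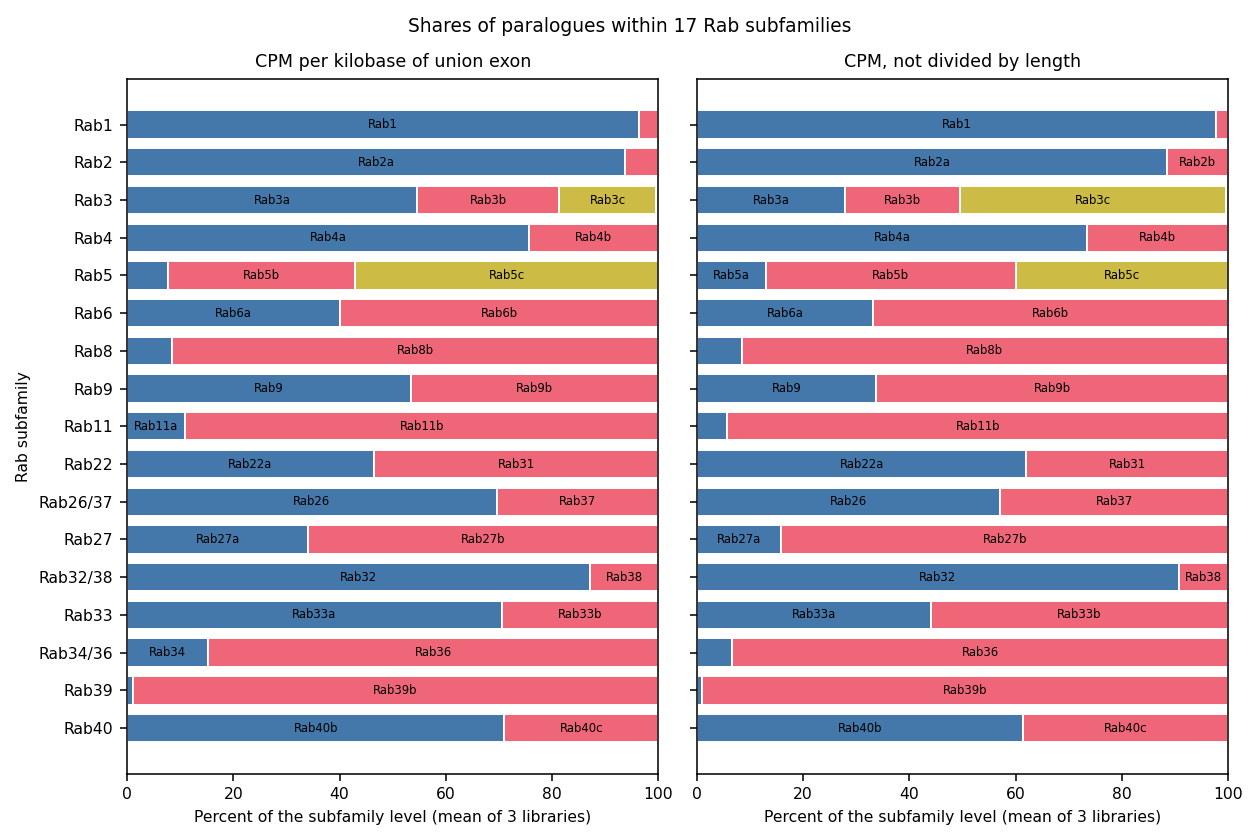
Mean share of each copy in the level of its subfamily over 3 libraries, in percent, for 17 subfamilies; the left panel uses CPM per kilobase of merged exon and the right panel CPM. Rab1, Rab2a, Rab8b, Rab11b, Rab32 and Rab39b take over 85% of their subfamilies on both scales. The leading copy changes between the panels for Rab3, Rab5, Rab9, Rab22 and Rab33.

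Early endosome Rabs were at middle levels, with 6 of 8 members detected and 3.33% ± 0.162 of the family's level per kilobase. The Rab5 genes, which control fusion of early endosomes, were led per kilobase by Rab5c at 28.5, 33.4 and 34.8, above Rab5b at 19.6, 19.4 and 20.3 and Rab5a at 4.43, 4.18 and 4.36. The 3 genes did not overlap in any library on that scale. By CPM, Rab5b was the higher of the first pair in 3 of 3 libraries, at 82.3, 81.3 and 85.1 against 62.5, 73.3 and 76.4 for Rab5c. Rab21, of integrin and clathrin-independent uptake, was at 116, 118 and 122 CPM. Rab22a and Rab31, a pair of early endosome and trans-Golgi Rabs, were at 30.3 ± 4.81 and 18.5 ± 2.41 CPM. Their levels per kilobase were 4.20 ± 0.668 and 4.85 ± 0.631, and Rab31 was the higher in 3 of 3 libraries, by a log2 ratio no larger than its spread (0.21 ± 0.24). Rab17, an epithelial Rab, and Rab20, of phagosomes, had 0 counts in every library.

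Of the recycling endosome Rabs, 7 of 8 were detected. Rab11b, of slow recycling to the plasma membrane (chromosome 17, 33742484 to 33760530, minus strand), was at 666, 646 and 619.6 CPM, and Rab11a, its widely expressed copy, was at 39.8, 43.1 and 33.4. Rab11b held 89.04% ± 1.04 of the level of the pair per kilobase. Rab4a, of fast recycling, was at 58.7, 54.9 and 51.6 CPM and held 75.6% ± 1.46 of the level that it shares with Rab4b. Rab15, a Rab of neural recycling endosomes, was at 83.3 ± 8.61 CPM, Rab14 at 34.7 ± 3.73 and Rab35, which also controls neurite growth, at 23.4 ± 2.91. Rab25, the epithelial relative of Rab11, had 0 counts.

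Rabs of late endosomes, lysosomes and autophagy held 23.3% ± 0.180 of the level per kilobase, of which Rab7 alone made up 19.5% ± 0.374. Rab7, which moves late endosomes and directs their fusion with lysosomes (chromosome 6, 87999106 to 88045270, minus strand), was at 1398, 1333 and 1342 CPM. Per kilobase it was the highest member on average, at 536, 511 and 514, but its libraries overlapped those of Rab6b, which was above it in replicate 3. Rab12, of recycling to lysosome transport, was at 105, 97.1 and 104 CPM.

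Rab9 and Rab9b, both X-linked, return receptors from late endosomes to the trans-Golgi. Rab9 was at 40.6, 59.96 and 49.5 CPM and Rab9b (chromosome X, 136858147 to 136868755, minus strand) at 73.7, 96.3 and 132 CPM. Rab9b was the higher by CPM in 3 of 3 libraries, while per kilobase Rab9 was the higher in replicates 1 and 2 only. Rab24, of autophagy, was at 25.998, 28.5 and 12.8 CPM.

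Low members of the same group were Rab32, a Rab of lysosome-related organelles and mitochondria, at 2.05, 3.99 and 4.04 CPM, and Rab29, which recruits the kinase LRRK2, at 1.62, 0.960 and 0.992 CPM. Rab38, the melanosome partner of Rab32, had 6, 0 and 5 counts. Rab32 was lowest in replicate 1, as were the sums of 8 of 10 marker lists, microglia (43.8, 73.99 and 67.4 CPM) and astrocytes (1655, 2632 and 2315 CPM) included. Lowest in that library were 4 of 9 microglial and 8 of 10 astrocyte genes, beside 36.6% of genes past a filter on low counts. The part of these cell types in the level of Rab32 was not tested. The spread of Rab32 between libraries was not above that of genes of its level (edgeR quasi-dispersion test, adjusted p = 0.996).

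All 4 Rabs of transport to the plasma membrane were detected, led by Rab10, which carries receptors and axonal membrane, at 104, 95.1 and 110 CPM. Rab8b was at 59.7, 51.2 and 59.1 CPM and Rab8a, a Rab of cilia and basolateral carriers, at 5.20, 7.02 and 3.19. Rab8b held 91.5% ± 3.52 of the level of the pair per kilobase. Rab13, of epithelial junctions, was at 2.13, 2.44 and 2.20 CPM.

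In the group of ciliary and less studied Rabs, 4 of 6 were detected. Rab40b and Rab40c, which carry a domain that recruits a ubiquitin ligase, were at 13.9 ± 0.474 and 8.72 ± 0.687 CPM. In replicates 1, 2 and 3 Rab40b was at 13.6, 14.4 and 13.5 CPM. Rab23, an inhibitor of hedgehog signalling, was at 41.1 ± 5.49 CPM and Rab28, a ciliary Rab, at 12.6, 7.02 and 12.4 CPM. Rab42 was at 0.511, 0.812 and 0.283 CPM, and Rab44, a Rab of immune cells, had 0 counts in every library.

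Between copies, the gene with the higher mean level per kilobase was higher in 3 of 3 libraries in 18 of 20 pairings with its relatives. The exceptions were Rab9 over Rab9b and Rab26 over Rab37. The leading gene was picked by its mean over these same libraries, which favours such a count, and no share for other gene pairs was counted. The largest log2 ratios per kilobase with reads of both genes in every library were those of Rab3a over Rab3d, at 7.08 ± 0.39, and of Rab39b over Rab39, at 6.94 ± 1.40. The smallest was Rab9 over Rab9b, at 0.20 ± 0.38. These ratios carry no p, because 3 libraries allow an exact two-sided sign-flip test no p smaller than 0.25.

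No Rab gene passed the test of whether its spread between libraries exceeds that of genes of its level. Of 50 members past the count filter, 0 passed edgeR's quasi-dispersion test (Benjamini-Hochberg adjusted p below 0.05), against 0.0879% of the 12509 genes tested. At an unadjusted p below 0.05 there were 3 members, or 6%, beside 5.72% of all genes tested, and DESeq2 marked 0 members as dispersion outliers. Of the 50 members, 21, 11 and 18 were highest in replicates 1, 2 and 3, beside 36.4%, 32.8% and 30.8% of all genes tested. They were lowest there in 16, 20 and 14 cases, beside 36.6%, 31.8% and 31.6%. The median range over the 3 libraries was 0.31 on the log2 scale for the 50 members and 0.42 for all genes past the filter. These ranges are not matched for level, since the median log2 CPM was 5.14 for the members and 4.33 for all genes past the filter. Of the 38 members at a mean of 10 CPM or more, Rab33a, Rab5b and Rab7 had the smallest ranges, at 0.04, 0.07 and 0.07, and Rab24, Rab9b and Rab28 the largest, at 1.15, 0.84 and 0.83.

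**Figure D3:**
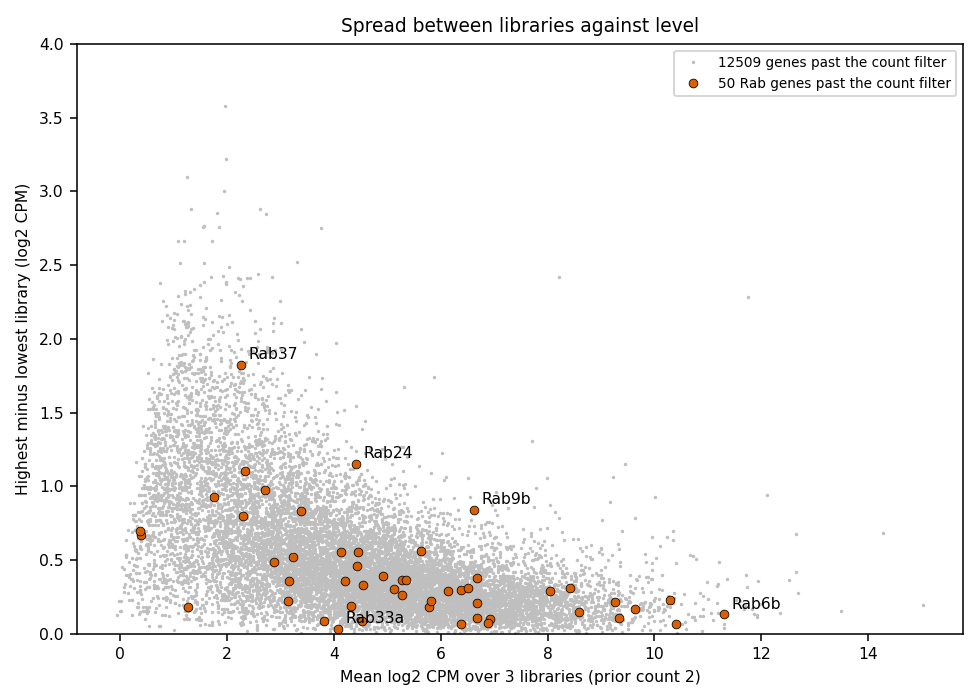
Difference between the highest and the lowest library (log2 CPM) against the mean log2 CPM; grey points are the 12509 genes past the count filter and orange points the 50 Rab genes among them. Rab37, Rab24 and Rab9b, the members with an unadjusted p below 0.05, lie above most genes of their level, and Rab6b and Rab33a are marked as members of small range, at 0.13 and 0.04.

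The members with an unadjusted p below 0.05 followed different libraries. Rab9b was lowest in replicate 1 and highest in replicate 3, with an F ratio of 7.55 (edgeR adjusted p = 0.509). Without replicates 1, 2 and 3 in turn the F ratio was 6.72, 12.5 and 2.37. Summed glutamatergic markers had the same order, at 6173, 7486 and 8247 CPM, with 89.4% of the sum in Camk2a and the order shown by 4 of the 6 genes. Summed pan-neuronal markers had it too, at 40236, 43199.9 and 46539.6 CPM, with 77.3% in Snap25 and the order shown by 5 of the 10 genes. Summed GABAergic markers did not, at 1843, 1605 and 1650 CPM. Of those 7 genes, 6 were highest in replicate 1, beside 36.4% of all genes tested, and 0 had the order of Rab9b. The part of these neurons in the value of Rab9b was not tested. The share of all genes with the order of Rab9b was not counted.

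Rab24 was low in replicate 3 (F ratio 5.65, edgeR adjusted p = 0.635). Without replicates 1, 2 and 3 in turn its F ratio was 10.6, 6.90 and 0.127. Prelid1, which overlaps 62.4% of its merged exons on the opposite strand, was at 32.3, 28.4 and 31.8 CPM. The oligodendrocyte sum was also lowest in replicate 3, at 566, 669 and 489 CPM. Of its 8 genes, 2 were lowest there and 4 in replicate 1, beside 31.6% and 36.6% of all genes tested. The part of the overlap and of these cells in the value of Rab24 was not tested. Rab37 was high in replicate 2, with 43, 134 and 38 counts (F ratio 4.53, edgeR adjusted p = 0.783). Without replicates 1, 2 and 3 in turn its F ratio was 8.90, 0.315 and 4.01. Replicate 2, where 32.8% of all genes tested were highest, also had the highest sum of 7 of the 10 marker lists. In these lists, genes highest there were 7 of 10 for astrocytes, 5 of 8 for oligodendrocytes and 2 of 5 for their precursors. They were 4 of 9 for microglia, 4 of 8 for endothelial and mural cells and 2 of 3 for erythroid cells. For choroid plexus and ependyma it was 1 of 3 genes with a read, Ttr. Erythroid sums were only 1.02, 3.91 and 3.33 CPM in replicates 1, 2 and 3. The part of these cells in the value of Rab37 was not tested.

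**Figure D4:**
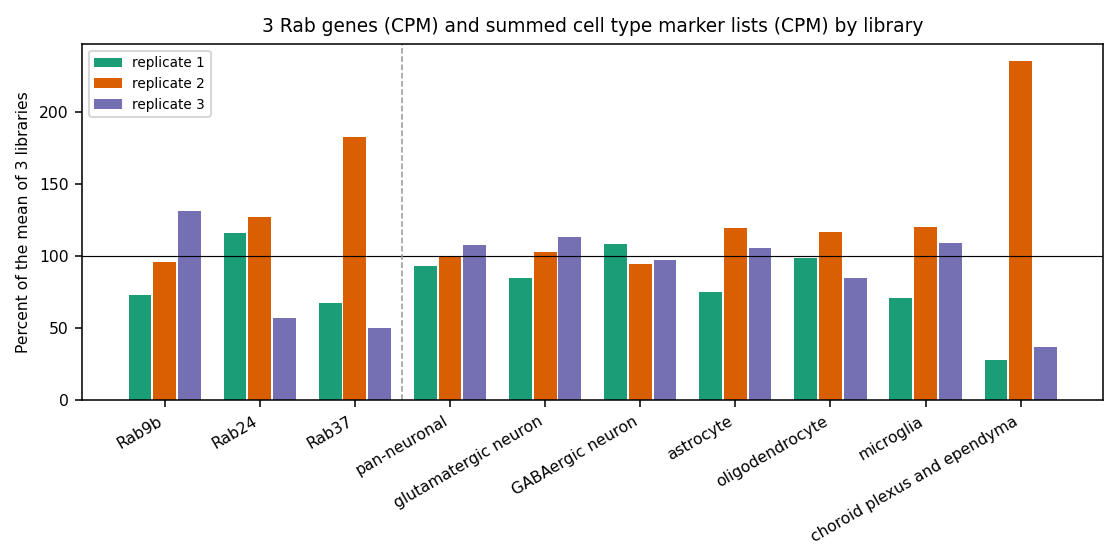
CPM of Rab9b, Rab24 and Rab37, and summed CPM of 7 cell type marker lists, in each library as a percent of the mean of the 3 libraries. Rab9b and the glutamatergic sum are both highest in replicate 3, Rab24 is low in replicate 3 alone, and Rab37 is high in replicate 2, where the choroid plexus sum is high through Ttr.

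Genes that act on or with Rabs were also described, from lists made by function. Of 113 genes, 97 were detected, beside 37.3% of all rows that name a gene and 56.4% of protein-coding ones. Of the 98 past the count filter, 0 passed edgeR's quasi-dispersion test, beside 0.0879% of all genes tested. An unadjusted p below 0.05 was found for 2 of them, beside 5.72% of all genes tested. All 8 genes of the GDI, escort and prenylation list were detected, among them Gdi2, a widely expressed GDP dissociation inhibitor, at 237 ± 29.6 CPM and the Rab escort gene Chm at 85.9 ± 9.35. Of 31 exchange factor genes 25 were detected, with Madd, the exchange factor of Rab3, at 174 ± 24.8 CPM, and Dennd5a and Dennd5b at 128 ± 7.59 and 126 ± 5.03.

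Of 32 GAP genes 30 were detected, with Rabgap1l at 334 ± 42.2 CPM, Tbc1d30 at 197 ± 21.9 and Rabgap1 at 146 ± 16.4. Of 39 effector genes 32 were detected. Per kilobase they were led by Rph3a, the gene of the Rab3 effector rabphilin, at 213 ± 20.9, followed by Myo5a, the myosin that carries Rab-bound vesicles, at 74.5 ± 0.625 and Osbpl1a, a Rab7 effector, at 39.8 ± 0.797. The phosphatase gene Ppm1h, which removes the marks that LRRK kinases place on Rabs, was at 137 ± 1.87 CPM, Lrrk2 at 46.9 ± 6.50 and Lrrk1 at 1.47 ± 0.528. Per kilobase the list medians were 14.2 for the GDI, escort and prenylation genes, 2.14 for exchange factors, 4.94 for GAPs, 7.53 for effectors and 5.52 for the Rab genes themselves.

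**Figure D5:**
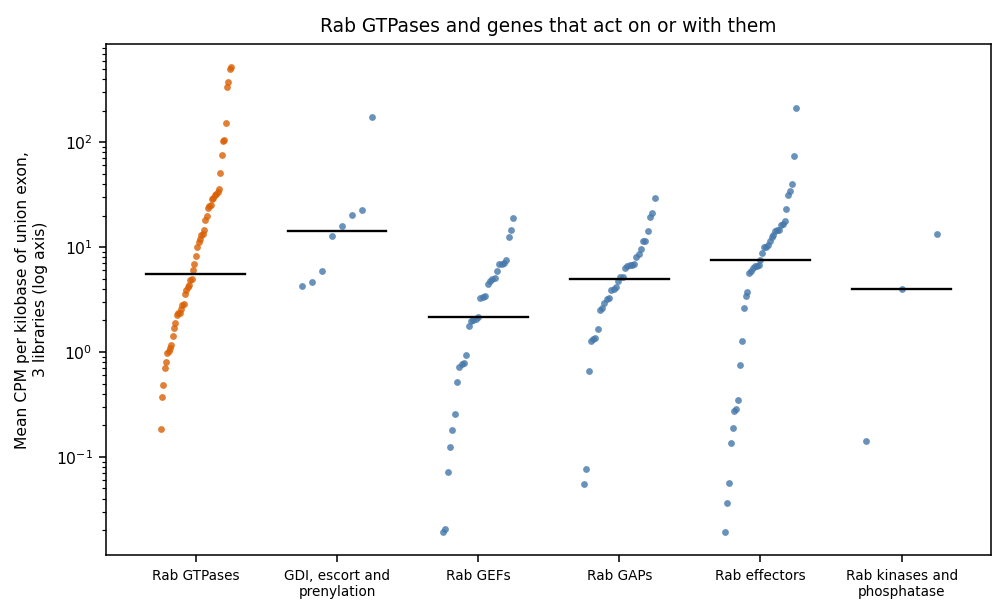
Mean CPM per kilobase of merged exon over 3 libraries (log axis) for the Rab genes with a read and for 5 lists of genes that act on or with them; each point is a gene and bars are list medians, genes at 0 included. Rab7 and Rab6b, at 520 and 499.98, are the highest points, and Rph3a leads the effectors at 213.

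What the members share beyond their name was looked at in their gene models. They lie on 18 chromosomes, with 4 on the X, and their merged exons run from 761 to 13589 bases and their coding sequences from 582 to 2175. Promoter sequence of RefSeq (GRCm38.p6) was at hand for 48 members. In the 250 bases before the start, taking the start with most, the 40 detected members held 5 to 42 CG dinucleotides with a median of 20, and all 9289 detected genes with an entry had a median of 18. For the 8 members not detected the median was 8.5, and for all 8217 other genes with a row that were not detected and had an entry, these 8 included, it was 3. The letters TATAAA, on either strand, were before at least 1 listed start for 8.33% of the members and 14.3% of the 27025 genes with an entry. Among detected ones the shares were alike, at 7.5% of the 40 members and 7.525% of the 9289 genes. Among those not detected they were 12.5% of the 8 members and 19.4% of the 8217 genes. These are counts of letters and say nothing of which start was used.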

How the data were processed

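RNA from 3 immunoprecipitates was measured by RNA-seq. The deposited values are raw counts of reads per gene symbol, which the authors left unnormalized. The submitters' processing notes name STAR 2.0.0e, HTSeq and mm10. For counting mode, strand setting and read length: not given in the sources used here. Rows naming no gene (38.1%, 32.4% and 29.3% of tallied reads in replicates 1, 2 and 3) were left out. CPM used TMM factors (edgeR 4.0.16, R 4.3.3), and log2 CPM a prior count of 2. Spread between libraries was tested with edgeR's quasi-likelihood fit (intercept-only, robust, filterByExpr minimum count 10): the F ratio of each gene's quasi-dispersion to the trend, Benjamini-Hochberg adjusted over 12509 genes. DESeq2 1.42.0 was an alternative. Merged exon lengths, coding sequences (Biopython 1.88) and overlaps came from GENCODE M21, matched by symbol for 57 members and through an older symbol for Rab1. All members were named, by role; values in each library went to the highest, the lowest and the most and least variable ones. Members, gene lists and tests were chosen with earlier results of these data known. Other scalings, filters and lengths, and leaving out each replicate, were tried. The values of 1 gene of the GDI, escort and prenylation list are not reported here.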

Additional observations from a re-analysis of the deposited data

How the results depend on the processing

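Of 42 alternative values of the main results, 35 stayed close to the main value. For levels, shares and medians, close meant within the SD between libraries. With 3 libraries, a mean with 1 left out always lies within that SD. Those alternatives were bound to count as close, and the 35 include them. For counts of genes or subfamilies it meant within a fixed ratio of the main count. The count of detected members was 48 and ran from 42 at a minimum of 5 CPM to 50 at 0.5 CPM, with 48 to 49 when a replicate was left out, and 0 members passed the test of spread under every alternative run. Genes of any kind passing that test numbered 11, but 66 with no count filter, 5 without robust moderation and 28 as DESeq2 dispersion outliers, and 4 to 9 when a replicate was left out (4 without replicate 2). Rab6b held 25.7% of the summed Rab CPM and 18.8% per kilobase. The median member lay 2.57 above the median protein-coding gene on the log2 scale, 2.49 per kilobase and 0.69 where members and protein-coding genes were both limited to those past the count filter. Of 20 pairings of a leading copy with a relative, 5 turned when counts were not divided by length: the log2 ratio was then -0.85 for Rab3a over Rab3c, -0.23 for Rab5c over Rab5b, -0.99 for Rab9 over Rab9b, -0.71 for Rab31 over Rab22a and -0.35 for Rab33a over Rab33b. None of the 20 turned with the longest transcript as length or with a replicate left out. For the 18 with the same order in every library, leaving a replicate out could not turn it. No paired analysis was possible because there is 1 group. Merged exons can be longer than the transcripts these cells use, and 3 counts limit what can be said of members near 0.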
